A study of Mus musculus with 21 samples.

Results

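Retinoic acid signalling was followed in mouse nephron progenitors through 8 genes that make the acid, carry it or receive it. The retinaldehyde dehydrogenase genes Aldh1a1, Aldh1a2 and Aldh1a3, the cellular binding protein genes Crabp1 and Crabp2, and the receptor genes Rara, Rarb and Rarg were chosen by name, as 8 of 18193 genes on the array. They had 11 probe sets among the 34945 that carried 1 gene symbol, and each gene is described by its brightest probe set (the one with the highest mean over all arrays) unless another is named. The rule names genes and uses no measured value, though the family was proposed with earlier results of these data known.

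Expression was measured on 21 arrays, 3 in each of 7 groups, of Six2-positive cells sorted by GFP from E16.5 kidneys of mice on a mixed background. All groups carry the same transgene, a bacterial artificial chromosome in which Six2 regulatory sequence drives a GFP and Cre fusion (Six2GFPcre), so the sort rests on Six2 activity and takes in any cell that still holds GFP. Fresh cells were not cultured. Dispersed cells had 24 h of DMSO or of 4 µM BIO in medium with 10% serum, and so had aggregates, which were pelleted by centrifugation at 40000 cells per sample. BIO inhibits the kinase GSK3 and so imitates a canonical Wnt signal through beta-catenin. A further pair of aggregate groups had BIO for 24 h and then either DMSO or more BIO until 48 h. No group kept in DMSO alone for 48 h is among them, so comparisons across the second day include a further day of culture. The labels call the arrays biological replicates without naming separate litters, sorts or cultures. The p-values therefore speak only of how far these arrays differ from each other.

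Median deposited signals ran from 87.2 to 106, and 70.9 to 72.4% of tested probe sets on an array lay above background, a signal of 41.9. Of the values of the 27 bacterial control probe sets, pooled over the 21 arrays, 95% stayed under that level. The 3' beta-actin control read 2669 to 5410 on the arrays of aggregates given BIO for 24 h and at least 6344 on every other array. Progenitor markers were present as the labels say, with 8 of 8 above background in fresh cells and a summed signal of 32470 to 34140, against 5376 to 13560 on the cultured arrays. Cited1, which marks the most immature of them, lay below background in each cultured group. Changes below are log2 differences of normalized values ± SE from limma (n = 3 arrays in each group), and p-values are adjusted over all 34945 probe sets. A gene is said to have risen or fallen where that adjusted p lay below 0.05.

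Retinoic acid is made from vitamin A. Retinol is oxidised to retinaldehyde by retinol dehydrogenases and alcohol dehydrogenases, and the retinaldehyde dehydrogenases of the Aldh1a family then make the acid in a step that is not reversed. CRABP proteins hold retinoic acid in the cytosol, the receptors RARA, RARB and RARG bind it in the nucleus as partners of the RXR proteins, and the CYP26 enzymes destroy it. In the fetal kidney the stroma is a known site of Aldh1a2, and retinoic acid receptors there are needed for the ureteric bud to keep Ret, the receptor gene that drives its branching.

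With BIO for 24 h some genes of synthesis and binding were higher, and the receptor gene Rarb was lower. In dispersed cells 5 of 8 genes changed, with Aldh1a2, Aldh1a3, Crabp1 and Crabp2 higher than in DMSO and Rarb lower, beside 22.1% of all probe sets. In aggregates 4 of 8 changed, with Aldh1a2, Aldh1a3 and Crabp2 higher and Rarb lower, beside 23.6% of all probe sets. The median change of the 8 genes was 0.75 in dispersed cells and 0.30 in aggregates, against 0.01 and 0.04 over all probe sets. These comparisons share no arrays. A difference between aggregates and dispersed cells in the response to BIO passed for 0 of the 8 genes, beside 0.818% of all probe sets. For 2 of the 8 the unadjusted p of that difference lay below 0.05, and with a variance trend and robust prior in limma 1 passed (Aldh1a2, adjusted p = 0.0229).

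**Figure D1:**
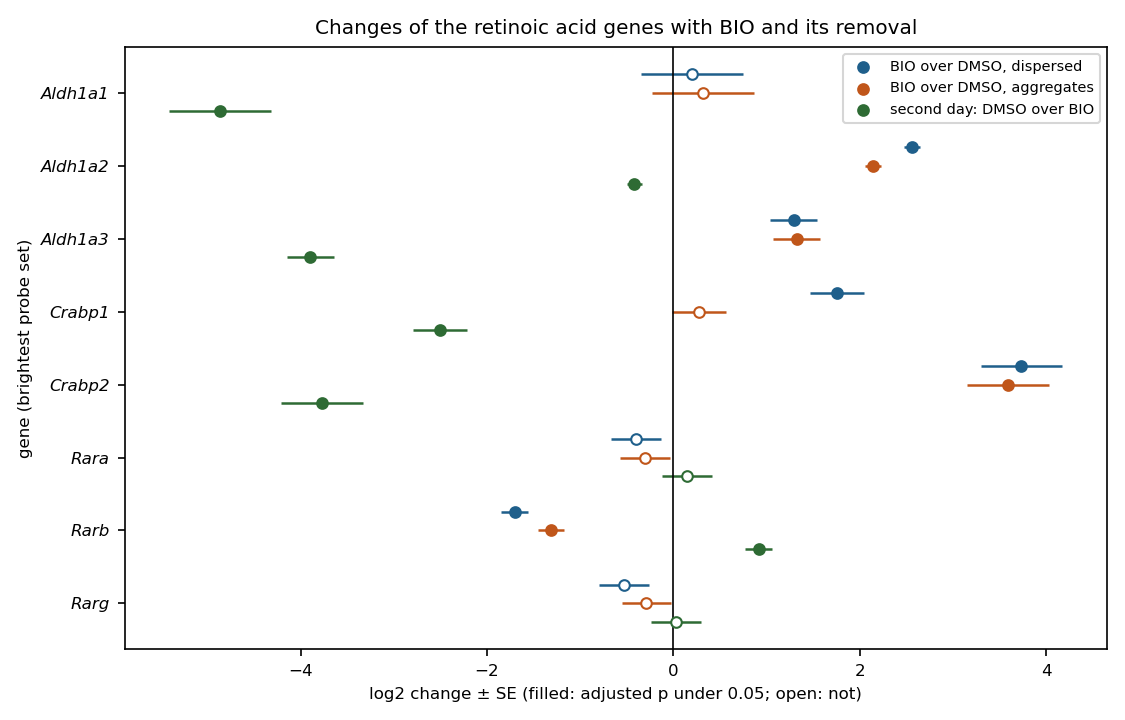
Log2 change ± SE (x axis) of the brightest probe set of each of the 8 genes (y axis) for BIO over DMSO in dispersed cells, BIO over DMSO in aggregates, and DMSO over BIO on the second day of aggregates. Filled points have an adjusted p under 0.05, and Aldh1a2, Aldh1a3, Crabp2 and Rarb are filled in all 3 comparisons, with the removal of BIO on the side opposite to its addition.

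When BIO was replaced by DMSO for the second day, 6 of 8 genes differed from aggregates kept in BIO, beside 15.2% of all probe sets. Aldh1a1, Aldh1a2, Aldh1a3, Crabp1 and Crabp2 were lower without BIO and Rarb was higher, and the median over the 8 genes was -1.46 against -0.03 over all probe sets. From 24 h to 48 h of continued BIO, 4 of 8 changed, beside 17.3% of all probe sets. Aldh1a1, Aldh1a3 and Crabp1 rose and Aldh1a2 fell. From 24 h of BIO to the end of the DMSO day, 4 of 8 changed, beside 22.8% of all probe sets, with Rarb higher and Aldh1a2, Aldh1a3 and Crabp2 lower. With the beta-actin control as a covariate Aldh1a2 alone of these 4 still passed. The 3 second-day comparisons share arrays with each other, and the last 2 also share the 24 h BIO aggregates with the comparison above.

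Culture in DMSO moved some of the same genes away from fresh cells. Among aggregates 5 of 8 changed, beside 29.4% of all probe sets, with Rara and Rarb higher and Aldh1a2, Crabp1 and Crabp2 lower, and with the Gapdh 3' over 5' ratio as a covariate 2 still passed, Aldh1a2 and Crabp2. Among dispersed cells 4 of 8 changed, beside 27.2%, with Rarb higher and Aldh1a2, Crabp1 and Crabp2 lower. Against the same fresh arrays, aggregates in BIO differed in 5 of 8 genes, beside 31.4%, with Aldh1a2, Aldh1a3 and Rara higher and Crabp2 and Rarb lower, of which 0 passed with the beta-actin covariate. Dispersed cells in BIO differed in 4 of 8, beside 20.3%, with Aldh1a2 and Aldh1a3 higher and Crabp2 and Rarb lower. Aggregation itself changed 1 of 8 genes in DMSO (Aldh1a2, higher), beside 2.58% of all probe sets, and 1 of 8 in BIO (Rarb, higher), beside 16.1%. Each of these last 2 calls ended when only the arrays compared were fitted (adjusted p = 0.162 for Aldh1a2), and that of Rarb also ended at the deposited scaling.

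**Figure D2:**
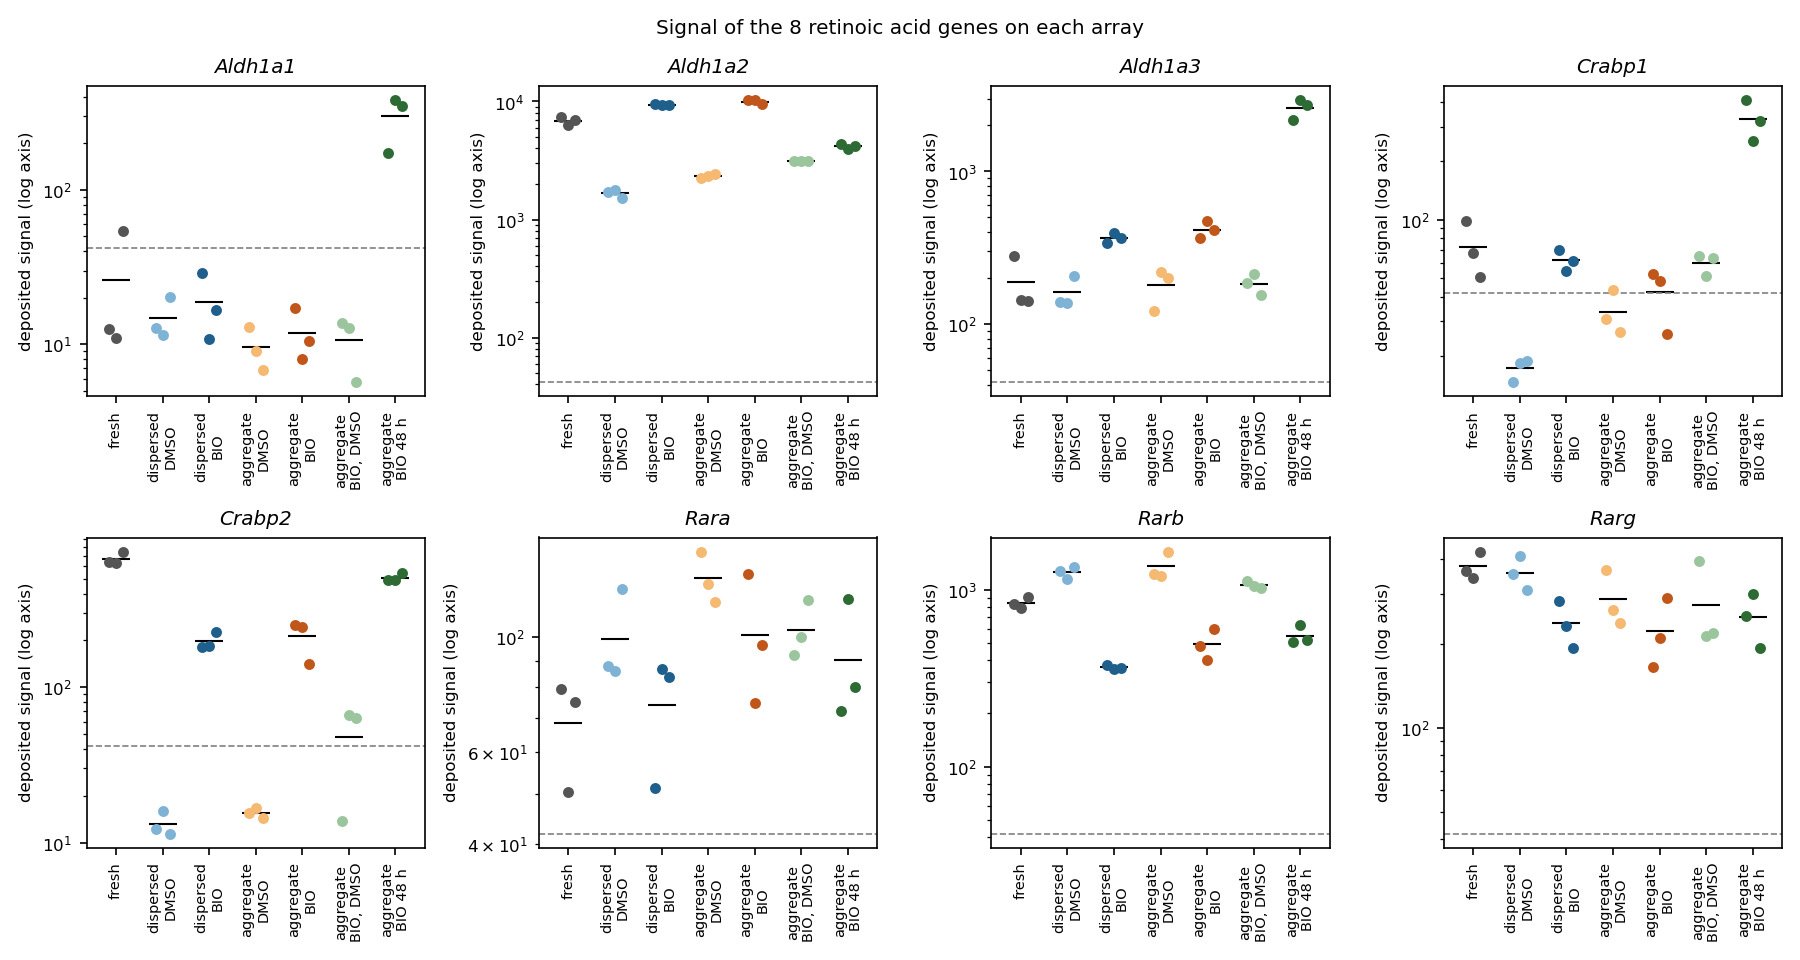
Deposited signal (y axes, log scale, a separate scale per gene) of the brightest probe set of each gene on each of the 21 arrays, by group on the x axes. Points are arrays, short lines are means of 3, and the dashed line is the background of 41.9. The signals of Aldh1a2 after 24 h of BIO lie above every array in DMSO, those of Rarb lie below, and Aldh1a1 stands clear of background after 48 h of BIO.

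Aldh1a2 (GRCm38.p6 chr9:71215789-71296243), which encodes the main retinaldehyde dehydrogenase of the early embryo, read 7388, 6318 and 6940 on the fresh arrays. In DMSO it read 1727, 1769 and 1526 in dispersed cells and 2256, 2335 and 2409 in aggregates. With BIO the values were 9496, 9371 and 9355 in dispersed cells and 10234, 10275 and 9452 in aggregates. Every DMSO array lay below every fresh array and every BIO array above, while the ranges of dispersed and aggregated cells with BIO overlapped. The second day ended at 3123, 3146 and 3144 with DMSO and at 4341, 3968 and 4194 with BIO, both between the DMSO cultures and the fresh cells.

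On the log2 scale Aldh1a2 rose with BIO by 2.56 ± 0.08 in dispersed cells (5.90-fold, adjusted p = 1.15e-11) and by 2.14 ± 0.08 in aggregates (4.40-fold, adjusted p = 6.91e-11). In DMSO it fell from fresh cells by 2.14 ± 0.08 when dispersed (adjusted p = 4.56e-11) and by 1.63 ± 0.08 when aggregated (adjusted p = 1.09e-09). The excess over fresh cells with BIO was small beside these, 0.42 ± 0.08 in dispersed cells (adjusted p = 0.00163) and 0.51 ± 0.08 in aggregates (adjusted p = 0.000275). The latter no longer passed with the beta-actin control as a covariate (adjusted p = 0.172). Aggregates in DMSO were 0.51 ± 0.08 above dispersed cells in DMSO (adjusted p = 0.00563).

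The second day lowered Aldh1a2 whether BIO stayed or not. It fell by 1.23 ± 0.08 under continued BIO (adjusted p = 1.35e-07) and by 1.65 ± 0.08 after the change to DMSO (adjusted p = 2.3e-09). At 48 h the aggregates changed to DMSO were lower than those in BIO by a log2 difference of -0.42 ± 0.08 (adjusted p = 0.00241), which did not pass when only those 6 arrays were fitted (adjusted p = 0.118). In the order of group means, aggregates and dispersed cells with BIO at 24 h overlapped at the top. Fresh cells, 48 h of BIO, BIO then DMSO, aggregates in DMSO and dispersed cells in DMSO followed, each neighbour apart from the next.

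Aldh1a3 (chr7:66390892-66427477), a retinaldehyde dehydrogenase gene known from the developing eye and ureteric tissue, took another course on the second day. It read 279, 144 and 141 in fresh cells, 140, 139 and 208 in dispersed DMSO and 122, 220 and 200 in aggregates in DMSO. With BIO it read 340, 396 and 365 in dispersed cells and 367, 472 and 412 in aggregates. These BIO arrays all lay above the fresh and DMSO arrays, which overlapped each other. After 48 h of BIO it reached 2166, 2930 and 2741, whereas after BIO and then DMSO it read 186, 212 and 155, within the range of the fresh and DMSO arrays.

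The rise with BIO was 1.29 ± 0.25 in dispersed cells (adjusted p = 0.00126) and 1.32 ± 0.25 in aggregates (adjusted p = 0.00103). Continued BIO added 2.53 ± 0.25 between 24 h and 48 h (adjusted p = 4.4e-06). Aggregates changed to DMSO ended 14.9-fold lower than those kept in BIO (log2 difference -3.90 ± 0.25, adjusted p = 2.52e-08).

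The 3 probe sets of Aldh1a3 did not behave alike. A dimmer one lay below background in the other 6 groups and read 480, 364 and 199 after 48 h of BIO, at least 7.93-fold above aggregates changed to DMSO (adjusted p = 2.04e-07). The remaining one read 6.5 to 95.7 over all arrays and passed in none of the 12 comparisons. With the mean of the 3 probe sets in place of the brightest, the rise with BIO was 0.72 in dispersed cells (adjusted p = 0.136) and 0.64 in aggregates (adjusted p = 0.175), neither of which passed. In aggregates the call also ended with the beta-actin covariate (0.58, adjusted p = 0.474).

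Aldh1a1 (chr19:20492583-20643463) encodes a retinaldehyde dehydrogenase with a broad range of aldehyde substrates. Its signal was 5.7 to 54.2 over the 18 arrays of the other groups, of which a single fresh array exceeded background, and 174, 381 and 347 after 48 h of BIO. It was at least 6.93-fold higher there than in aggregates with 24 h of BIO (log2 change 4.40 ± 0.55, adjusted p = 3.78e-05) and at least 6.93-fold higher than in aggregates changed to DMSO (log2 difference for removal -4.86 ± 0.55, adjusted p = 9.89e-06). No fold is given for its other comparisons, since both groups lay below background.

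Among the binding proteins, Crabp2 (chr3:87948693-87953372), whose product passes retinoic acid to its nuclear receptors, read 636, 631 and 746 in fresh cells. In DMSO it was below background on every array, at 12.2, 16 and 11.4 in dispersed cells and 15.5, 16.7 and 14.3 in aggregates. With BIO it read 182, 184 and 225 in dispersed cells and 251, 245 and 141 in aggregates. All BIO arrays thus lay above all DMSO arrays and below all fresh arrays. The 48 h BIO arrays read 487, 490 and 541, and those changed to DMSO 13.7, 66 and 63.6, of which the first lay below background.

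Crabp2 fell at least 14.7-fold from fresh cells in DMSO in both formats (adjusted p = 1.03e-07 dispersed and 3.18e-07 aggregated). With BIO it was at least 4.38-fold above DMSO in dispersed cells (log2 change 3.73 ± 0.44, adjusted p = 9.03e-06) and at least 5.36-fold in aggregates (3.59 ± 0.44, adjusted p = 1.45e-05). It still fell short of fresh cells, by a log2 difference of -1.75 ± 0.44 in dispersed cells with BIO (adjusted p = 0.00901) and -1.45 ± 0.44 in aggregates with BIO (adjusted p = 0.0189). The last call ended without the third fresh array (adjusted p = 0.0542), without the third BIO aggregate array (adjusted p = 0.0824) and with either control as a covariate.

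After the change to DMSO, Crabp2 was at least 9.15-fold lower than with BIO to 48 h (log2 difference -3.77 ± 0.44, adjusted p = 1.37e-05). The size rests partly on the first array of the changed group: without it the difference was -3.00 (adjusted p = 5e-07), and the fall from 24 h of BIO went from -2.60 to -1.83 (adjusted p = 7.43e-05). Continued BIO gave a difference of 1.17 ± 0.44 between 24 h and 48 h that did not pass (adjusted p = 0.0825), though it did at the deposited scaling (1.29, adjusted p = 0.0398) and with log2(value + 16) (1.11, adjusted p = 0.0149).

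Crabp1 (chr9:54764748-54773110), which encodes the related protein that holds retinoic acid in the cytosol, was near background in most groups. It read 98.8, 67.3 and 50.9 in fresh cells, 14.6, 18.2 and 18.7 in dispersed cells in DMSO, and 69.6, 54.3 and 61.2 in dispersed cells with BIO. In aggregates it read 30.7, 43.2 and 26.4 in DMSO and 52.4, 48.5 and 25.8 with BIO, with overlapping ranges. It rose at least 1.42-fold with BIO in dispersed cells (log2 change 1.76 ± 0.29, adjusted p = 0.000284), while the change in aggregates was 0.28 ± 0.29 (adjusted p = 0.564). The difference between these responses was -1.48 ± 0.41 and did not pass (adjusted p = 0.132).

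After 48 h of BIO, Crabp1 read 411, 253 and 323, above every other array, and after BIO and then DMSO 65.1, 51.3 and 63.4. The rise from 24 h to 48 h of BIO was 2.92 ± 0.29 (adjusted p = 4.03e-06). Aggregates changed to DMSO differed from those kept in BIO by -2.50 ± 0.29 (adjusted p = 1.33e-05). Their own change from 24 h of BIO was 0.42 ± 0.29 and did not pass (adjusted p = 0.329). Crabp1 fell from fresh cells at least 1.57-fold in dispersed DMSO (adjusted p = 0.000101) and at least 1.55-fold in aggregates in DMSO (adjusted p = 0.0284). The latter did not pass without the first or second fresh array, or without aggregate replicate 1 or 3 (adjusted p from 0.0653 to 0.13).

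Rarb (chr14:16430839-17082331) encodes the receptor that is itself a textbook target of retinoic acid, through a response element close to its start. The 250 bases before the start site in RefSeq (GRCm38.p6 chr14:16575477-16575726, minus strand) are shown because they hold the element that makes Rarb a common gauge of the signal. Capitals mark a DR5 match, a pair of half-sites in direct repeat with 5 bases between them, from 53 to 37 bases before the start.
Rarb: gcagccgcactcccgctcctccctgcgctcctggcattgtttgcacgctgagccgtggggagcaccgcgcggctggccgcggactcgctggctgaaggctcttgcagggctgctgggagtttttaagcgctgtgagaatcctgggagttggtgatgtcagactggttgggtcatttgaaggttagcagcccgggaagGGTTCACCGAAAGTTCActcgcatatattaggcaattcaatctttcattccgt
The same search of both strands found a DR5 in 29 of 32851 windows of that length (0.0883%). Of the 8 genes 6 had a window, and Rarb alone of these held a DR5. The core bound by TCF and LEF, the DNA-binding partners of beta-catenin, was searched as the letters CTTTG followed by A or T at each of the next 2 bases, on either strand. It stood 2 times in 1 of the 2 windows of Aldh1a1 and 1 time in 1 of the 4 windows of Rara. The 2 windows of Rarg and the 1 window each of Aldh1a2, Crabp1 and Rarb did not hold these letters. Of all windows 14.8% held them at least 1 time.

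In the 24 h comparisons of BIO with DMSO, Rarb fell where Aldh1a2 and Aldh1a3 rose. It read 828, 793 and 916 in fresh cells, 1278, 1152 and 1337 in dispersed DMSO and 1227, 1192 and 1644 in aggregates in DMSO. With BIO it read 375, 356 and 363 in dispersed cells and 480, 402 and 602 in aggregates. Neither BIO group overlapped the fresh or the DMSO arrays, with BIO lowest and DMSO highest. On the second day it read 504, 628 and 518 with BIO, overlapping the 24 h aggregates in BIO, and 1124, 1044 and 1022 with DMSO, between fresh cells and the DMSO cultures.

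Rarb fell with BIO by 1.70 ± 0.14 in dispersed cells (adjusted p = 1.75e-07) and by 1.31 ± 0.14 in aggregates (adjusted p = 3.89e-06). Removal of BIO left it 0.91 ± 0.14 above continued BIO (adjusted p = 0.000235), and no change passed over the second day with BIO (0.07 ± 0.14, adjusted p = 0.811). From fresh cells it rose by 0.54 ± 0.14 in dispersed DMSO (adjusted p = 0.00876) and by 0.74 ± 0.14 in aggregates in DMSO (adjusted p = 0.000812). Both of these rises lost their call with the Gapdh 3' over 5' ratio as a covariate (adjusted p = 0.103 and 0.113).

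Rara (chr11:98927800-98974942), the most widely expressed receptor gene of the family, changed little. Its lowest and highest signals were 50.4 in fresh cells and 146 in aggregates in DMSO, and every group overlapped its neighbour in the order of means. It was higher than in fresh cells in aggregates in DMSO (130 ± 14.9 against 68.2 ± 15.6, SD, log2 change 1.09 ± 0.27, adjusted p = 0.00575), a call that ended with the Gapdh ratio as a covariate (0.56, adjusted p = 0.345). In aggregates with BIO the difference from fresh cells was 0.78 ± 0.27 (adjusted p = 0.0363) and did not pass under 10 of the alternatives, among them leaving out fresh replicate 2 or 3 or aggregate replicate 1 or 3 (adjusted p from 0.0536 to 0.173). With BIO against DMSO the differences were -0.41 ± 0.27 in dispersed cells (adjusted p = 0.338) and -0.31 ± 0.27 in aggregates (adjusted p = 0.475).

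Rarg (chr15:102234938-102257522), a receptor gene best known from skin and cartilage, passed in none of the 12 comparisons as fitted here. Its group means ran from 221 ± 63.5 in aggregates with BIO to 378 ± 43.4 in fresh cells (SD), and all neighbouring groups overlapped. The largest difference was that of dispersed cells with BIO from fresh cells, at -0.73 ± 0.27 (adjusted p = 0.0652), which passed with a variance trend and robust prior (adjusted p = 0.0432). For aggregates with BIO against fresh cells the difference was -0.64 ± 0.27 (adjusted p = 0.0783), and it passed at the deposited scaling (-0.80, adjusted p = 0.0329) and without BIO aggregate replicate 3 (-0.86, adjusted p = 0.0311). Its other probe set had a mean below background in every group.

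The genes upstream of the dehydrogenases were followed in a list of 14 for retinol supply and retinaldehyde formation, of which 12 were measured. With BIO 4 rose and 2 fell in dispersed cells, and 3 rose and 2 fell in aggregates, beside 22.1% and 23.6% of all probe sets, at medians of 0.35 and 0.02. Rbp4, the secreted carrier of retinol, rose from 93.4 ± 6.0 to 935 ± 64.4 in dispersed cells (SD, log2 change 3.35 ± 0.21, adjusted p = 5.1e-09) and from 108 ± 17 to 765 ± 26.4 in aggregates (2.84 ± 0.21, adjusted p = 4.5e-08). Stra6, the membrane receptor that takes retinol from RBP4, rose by 1.41 ± 0.17 in dispersed cells (adjusted p = 1.37e-05) and by 0.96 ± 0.17 in aggregates (adjusted p = 0.000601). On the second day both were lower after the change to DMSO than with BIO, Rbp4 by a log2 difference of -2.87 ± 0.21 (adjusted p = 7.07e-08) and Stra6 by -1.63 ± 0.17 (adjusted p = 4.93e-06).

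Genes that convert retinol and retinaldehyde into each other went separate ways. Adh1, an alcohol dehydrogenase that oxidises retinol, fell with BIO by 2.15 ± 0.14 in dispersed cells (adjusted p = 7.37e-09) and by 1.22 ± 0.14 in aggregates (adjusted p = 5.63e-06). Dhrs3, which turns retinaldehyde back into retinol and is a known retinoic acid target, averaged 3426 in aggregates in DMSO and 943 with BIO, a fall of 1.74 ± 0.17 (adjusted p = 1.58e-06). Both were higher after BIO was removed, Adh1 by 0.96 ± 0.14 (adjusted p = 9.88e-05) and Dhrs3 by 0.81 ± 0.17 (adjusted p = 0.00395).

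Rdh10, the retinol dehydrogenase needed for retinoic acid in the embryo, averaged 7466 in fresh cells, 2100 in dispersed DMSO and 2613 in aggregates in DMSO. These falls from fresh cells were -1.91 ± 0.10 (adjusted p = 6.57e-10) and -1.56 ± 0.10 (adjusted p = 7.34e-09) on the log2 scale. With BIO it averaged 3732 in dispersed cells, a rise of 0.91 ± 0.10 (adjusted p = 3.24e-06), and 2528 in aggregates. From fresh cells in DMSO the list had 1 rise and 1 fall in dispersed cells and 2 rises and 1 fall in aggregates, at or below the 27.2% and 29.4% of all probe sets. In aggregates Dhrs3 rose by 1.46 ± 0.17 (adjusted p = 9.69e-06) and Rdh11, a retinaldehyde reductase gene, by 0.76 ± 0.10 (adjusted p = 2.5e-05).

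Of the breakdown enzymes Cyp26a1, Cyp26b1 and Cyp26c1, 2 were measured, and 0 passed for BIO or for its removal. Cyp26a1, a strong target of retinoic acid, had a mean below background in aggregates at 24 h with and without BIO. After the change to DMSO its mean signal was 294 (range 194 to 441) and after 48 h of BIO 78.2 (53.6 to 107), ranges that did not overlap. That difference was 1.79 ± 0.60 and did not pass (adjusted p = 0.0585), whereas the rise from 24 h of BIO to the end of the DMSO day was at least 4.93-fold (adjusted p = 0.00128).

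Of 11 listed receptor partners and coregulators 9 were measured. In dispersed cells 2 rose and 1 fell with BIO, and in aggregates 1 rose and 1 fell, shares near or above the 22.1% and 23.6% of all probe sets. For removal 0 passed, where the largest difference was that of Rxrg, below background in both groups. Fabp5, which can carry retinoic acid to the receptor PPARD instead of the RARs, rose by 0.45 ± 0.07 in dispersed cells (adjusted p = 0.000171) and by 0.43 ± 0.07 in aggregates (adjusted p = 0.000263). Ppard fell by 0.86 ± 0.27 in dispersed cells (adjusted p = 0.033), and the coactivator gene Ncoa3 fell by 0.34 ± 0.11 in aggregates (adjusted p = 0.0277). Rxrg, counted among the rises in dispersed cells, was below background in both groups.

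Of 13 listed genes known to answer retinoic acid 12 were measured. With BIO 1 rose and 5 fell in dispersed cells, beside 22.1% of all probe sets, while 0 rose and 4 fell in aggregates, beside 23.6%. The medians over the list were -0.35 and 0.15, so the list as a whole did not lie lower in aggregates. The transglutaminase gene Tgm2 went opposite ways in the 2 formats. It averaged 461 and 167 in dispersed DMSO and BIO, and 208 and 294 in aggregates in DMSO and BIO. Rarres1, named for its induction by retinoids, fell at least 2.93-fold in dispersed cells (adjusted p = 0.00172) and at least 3.46-fold in aggregates (adjusted p = 0.000503). Meis2, a homeobox gene, fell by 0.68 ± 0.09 (adjusted p = 3.58e-05) and 1.07 ± 0.09 (adjusted p = 2.89e-07), and Rai14 fell by 0.93 ± 0.09 (adjusted p = 1.57e-06) and 0.83 ± 0.09 (adjusted p = 5.91e-06).

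After removal of BIO 3 of the 12 were higher and 0 lower, beside 15.2% of all probe sets, Meis1 by 1.36 ± 0.09 (adjusted p = 5.39e-08), Rai14 by 0.41 ± 0.09 (adjusted p = 0.00648) and Dhrs3, which sits in both lists. From 24 h of BIO to the end of the DMSO day 6 rose and 0 fell, beside 22.8% of all probe sets. Over the second day with BIO 3 rose and 1 fell, beside 17.3%. Tgm2, a transglutaminase gene that retinoids induce, rose over the second day in both arms, by 2.50 ± 0.21 with DMSO (adjusted p = 4.2e-07) and 3.01 ± 0.21 with BIO (adjusted p = 1.35e-07).

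**Figure D3:**
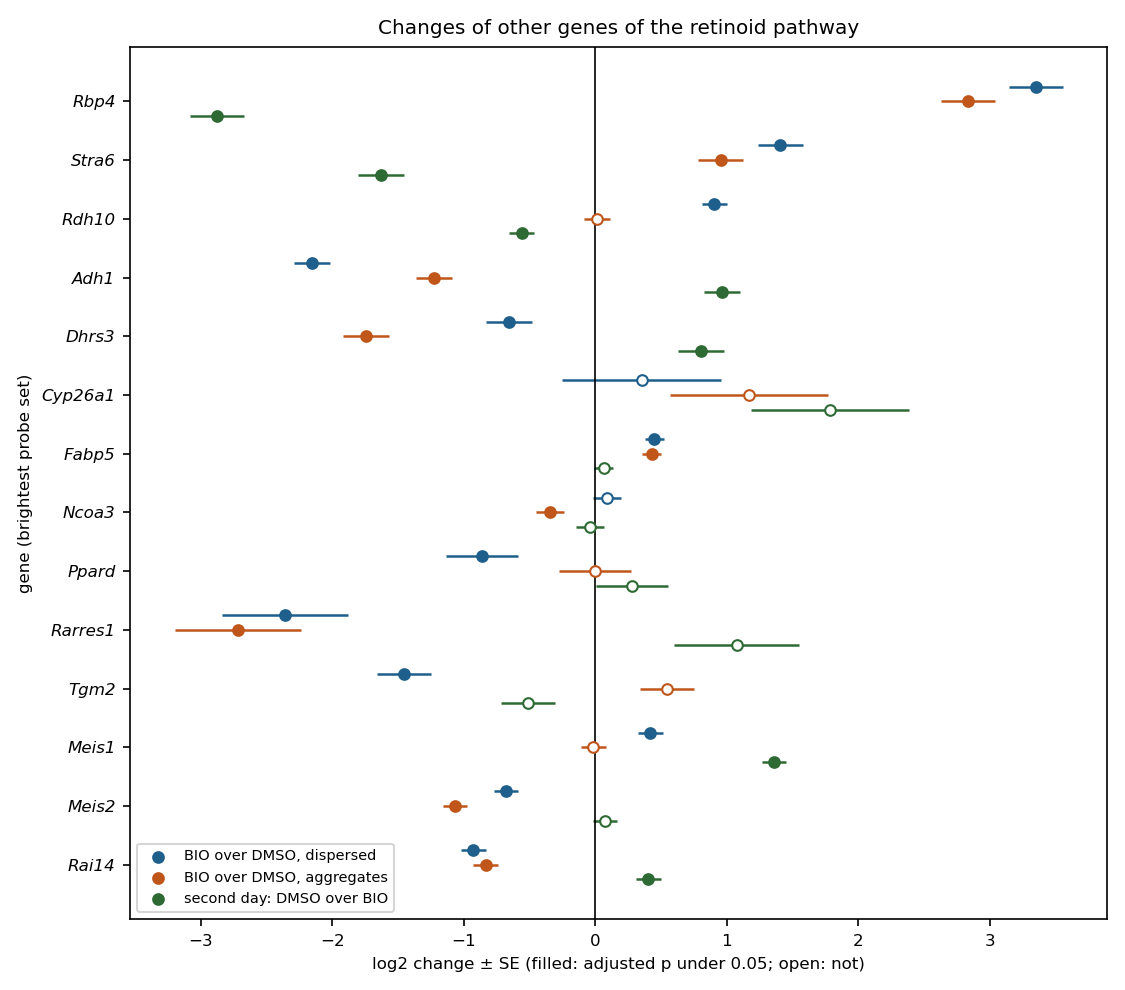
Log2 change ± SE (x axis) of named genes of the retinoid pathway (y axis, brightest probe set) for BIO over DMSO in dispersed cells and in aggregates, and for DMSO over BIO on the second day of aggregates. Filled points have an adjusted p under 0.05. Rbp4 and Stra6 lie to the right with BIO and to the left on its removal, and Adh1 and Dhrs3 the reverse.

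Some markers of other cell types also differed between the groups. The 8 interstitial stroma markers were all above background in every group, and their summed signal was 13100 to 15080 on fresh and 24 h DMSO arrays, 3018 to 3661 on 24 h BIO arrays, 9518 to 10910 after BIO and then DMSO, and 1700 to 2309 after 48 h of BIO. Of these markers 6 fell with BIO in dispersed cells, beside 22.1% of all probe sets. In aggregates 6 fell and 1 rose, beside 23.6%. Foxd1, a transcription factor gene of early stroma, fell by 2.35 ± 0.15 in dispersed cells (adjusted p = 8.7e-09) and by 2.31 ± 0.15 in aggregates (adjusted p = 1.31e-08). Pdgfrb averaged 1833 and 70.5 in dispersed DMSO and BIO, and 1516 and 234 in aggregates in DMSO and BIO. Removal of BIO raised 6 and lowered 0, beside 15.2% of all probe sets. Rarb was thus higher on arrays without BIO on their last day than on those with it, as the summed stroma markers were. Among the groups without it the order of Rarb differed from that of the sum. Rarb averaged 846 in fresh cells, where the markers summed to 13100 to 14540, and 1063 after BIO and then DMSO, where they summed to less. This sum hides stroma markers that moved apart. From fresh cells to DMSO 2 rose and 5 fell in dispersed cells, beside 27.2% of all probe sets. In aggregates 2 rose and 4 fell, beside 29.4%. Pdgfrb averaged 682 in fresh cells and 2012 after BIO and then DMSO, whereas Foxd1 averaged 2082 and 1120. In a bulk sample fewer cells of a type and less RNA per cell cannot be told apart, and the part of the stroma markers in the changes of Rarb was not tested.

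Aldh1a2 was higher in the groups with 24 h of BIO, where the summed stroma markers were low. Summed nephron progenitor markers were 9861 to 11070 and 10490 to 11130 in dispersed DMSO and BIO, ranges that overlapped, and 10820 to 12120 and 12880 to 13560 in aggregates in DMSO and BIO, which did not. The sum hides members that moved apart. With BIO 2 of the 8 rose and 4 fell in dispersed cells, beside 22.1% of all probe sets. In aggregates 3 rose and 5 fell, beside 23.6%. Eya1, a progenitor gene upstream of Gdnf, averaged 7779 in fresh cells, 1725 and 4197 in dispersed DMSO and BIO, and 2135 and 4029 in aggregates in DMSO and BIO, and so was lower in DMSO and higher with BIO, as Aldh1a2 was. Sall1 was likewise higher with BIO in both formats (1.25 ± 0.13, adjusted p = 2.88e-06, and 1.73 ± 0.13, adjusted p = 8.38e-08), and Gdnf in aggregates (2.12 ± 0.39, adjusted p = 0.000685). Six2 fell with BIO by 1.62 ± 0.13 in dispersed cells (adjusted p = 1.01e-07) and by 1.38 ± 0.13 in aggregates (adjusted p = 7.76e-07). Other progenitor markers were also lower with BIO. Osr1 averaged 565 and 114 in dispersed DMSO and BIO, and 486 and 31.0 in aggregates in DMSO and BIO. In the same order Meox1 averaged 433, 81.9, 429 and 38.5, and Crym 758, 546, 1564 and 838. Osr1 and Meox1 were below background in aggregates with BIO. Ureteric bud markers summed to 661 to 1392 and 793 to 1058 in dispersed cells and aggregates with 24 h of BIO, and to 836 to 1713 in dispersed DMSO. After 48 h of BIO, where Aldh1a1, Aldh1a3 and Crabp1 were highest, they summed to 1467 to 1793. There 7 of 7 were above background, Gata3 in no other group, and Emx2 alone averaged 927, against 202 in aggregates with 24 h of BIO. Over the second day with BIO 2 of the 7 rose, beside 17.3% of all probe sets. The other 5 did not pass, and their mean signals were lower at 48 h. Gata3 averaged 111 after 48 h of BIO and 6.63 after BIO and then DMSO, where the summed markers were 1602 to 2480 and Emx2 alone averaged 1318. Endothelial markers summed to 505 to 695 after 48 h of BIO, with Tie1, Pecam1 and Emcn below background and Kdr, Cdh5 and Tek above it. Tek was highest there, at 251 ± 87.3 (SD) against 49.0 ± 19.7 after BIO and then DMSO (log2 difference for removal -2.46 ± 0.34, adjusted p = 7.73e-05). Over all arrays endothelial markers summed to 315 to 695, leukocyte markers to 649 to 1884 and mesothelial markers to 202 to 1102, with Tie1 and Msln below background in every group. The 4 podocyte markers measured summed to 1624 to 3350 on arrays without BIO on their last day and to 369 to 606 on those with it. The part of these cell types in the results was not tested.

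**Figure D4:**
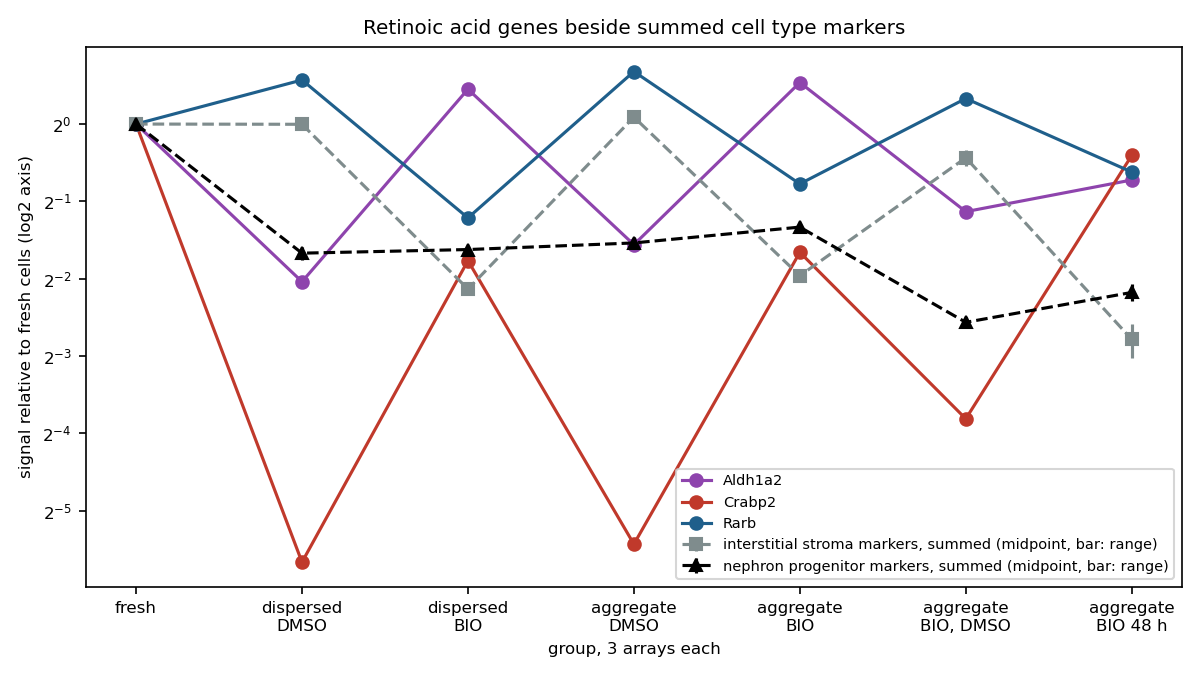
Mean signal of Aldh1a2, Crabp2 and Rarb, and summed signal of interstitial stroma and nephron progenitor markers, relative to fresh cells (y axis, log2 scale) in the 7 groups (x axis, 3 arrays each). For the marker sums the symbol is the midpoint and the bar the range, and the lines between groups are drawn only to keep each series apart. Rarb and the stroma markers are low in the BIO groups, where Aldh1a2 and Crabp2 are above their DMSO levels.

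The genes whose pattern over the 21 arrays was most like that of each member were found among 14192 other genes above background in at least 1 group, with Pearson's r of normalized log2 values. Groups differ strongly, so r mainly reflects the 7 group means. Aldh1a2 was closest to Brca2 (r = 0.97) and Acsl3 (0.96), Aldh1a3 to Sema6a and Arsb (0.97 each), and Aldh1a1 to Ptprb (0.92) and Fam163a (0.91). Crabp1 was closest to Lancl1 (0.94) and Dennd2a (0.93), and Crabp2 to Prrg3 (0.97) and Crispld1 (0.96). Rarb was closest to Aplp1 (0.96) and to Pdgfrb (0.95), a stroma marker of the list above, and Rara to Gde1 and Maip1 (0.81 each). Among the 8 genes themselves, Rarb and Aldh1a2 had an r of -0.83, Aldh1a3 and Aldh1a1 0.82, Aldh1a3 and Crabp1 0.82, and Aldh1a2 and Crabp2 0.79.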

How the data were processed

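RNA of 21 samples was amplified in 2 rounds and labelled with biotin, per the labels' protocols. The values deposited by the authors are linear signal intensities from 0.1 to 18025 per probe set. The sources used here do not give their software or scaling. Of 45101 probe sets, 34945 had 1 symbol, 932 several, 9160 none, and 64 were controls. Symbols followed the platform table and RefSeq names (34741 matched). A further gene of the family is not reported here.

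Values were taken as log2(value + 1), quantile normalized and fitted with limma 3.58.1 (R 4.3.3) to the 21 arrays, each group having its own mean, which left 14 residual degrees of freedom beside 1.66 from the prior. All 34945 probe sets were tested in 12 comparisons and p-values adjusted by Benjamini-Hochberg within each. If only 1 of the groups compared averaged below background, arrays under that level were set to it and the difference is given as at least so many fold. The fit was tested on simulated data. The number of arrays limits the precision. No pair of arrays shared more than 0.288% of its values.

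The genes and lists were chosen with earlier results of these data known. All members are named with every probe set. Genes of the pathway lists were named by size of change, at most 4 passing genes per comparison described, or the largest where none passed. Not every such gene is given. The 2 genes closest to each member that spanned at least 1 on the log2 scale are also named. Marker genes were not all named by size. Of the leukocyte and podocyte lists no gene is named, though some passed with BIO. Rdh10 in aggregates with BIO was chosen after its values were seen. So were Eya1, Sall1, Six2, Osr1, Meox1, Crym, Pdgfrb, Kdr and Cdh5 among the markers. Same-numbered arrays did not deviate together (r from -0.20 to 0.12, with 1 of 63 over 0.1). Whether replicate numbers pair samples is not known from the labels, so they were no block in the main fit. Alternatives were deposited scaling, median centring, a filter on dim probe sets, 1 probe set or the mean of probe sets per gene, only the arrays compared, a variance trend with robust prior, a replicate block, log2(value + 16), the 3' beta-actin control or Gapdh 3' over 5' ratio as covariate, and leaving out each array. Sequences are from RefSeq on GRCm38.p6. Plots used matplotlib 3.10.9 (Python 3.11.15).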

Additional observations from a re-analysis of the deposited data

Results flagged for a closer look

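The response to BIO differed between aggregates and dispersed cells, by the interaction term of the limma fit, for 3 genes of the pathway lists. Adh1 fell less in aggregates, with an interaction of 0.93 ± 0.19 (adjusted p = 0.0319). Rdh10 rose by 0.91 ± 0.10 in dispersed cells and differed by 0.02 ± 0.10 in aggregates (adjusted p = 0.935), with an interaction of -0.89 ± 0.14 (adjusted p = 0.005). Tgm2 had an interaction of 2.00 ± 0.29 (adjusted p = 0.00332), with mean signals of 461 in DMSO and 167 in BIO for dispersed cells and of 208 and 294 for aggregates. The probe set of Tgm2 is of a class that can share probes with other transcripts.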

How the results depend on the processing

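Of 43 changes of the 8 genes that passed, 25 passed under every alternative run, 18 lost the call under at least 1, and 0 reversed. All changes of the brightest probe sets with BIO in either format passed under each alternative, except Aldh1a3 as given above. The number of the 8 genes that changed, 5 in aggregates with BIO against fresh cells, was 0 with the beta-actin covariate, 3 with the Gapdh covariate, 3 with only the arrays compared, and 3 to 5 when each array was left out. For aggregates in DMSO against fresh cells it was 2 with the Gapdh covariate instead of 5. For aggregation in BIO, 1 became 0 with the beta-actin covariate, 0 with the Gapdh covariate, 0 at the deposited scaling, 0 with only the arrays compared and 2 when centred on array medians. For aggregation in DMSO, 1 became 2 when centred and 0 with only the arrays compared. The interaction had 1 in place of 0 with a variance trend and robust prior, and the DMSO day after BIO had 1 in place of 4 with the beta-actin covariate. The cause was not tested in these cases. The fits to only the arrays compared also rest on fewer arrays. With the replicate block the counts were the same except for aggregates with BIO against fresh cells, at 4 in place of 5. Every array of aggregates with 24 h of BIO lies below all others in the beta-actin control, so there the covariate and the group cannot be told apart. The Gapdh 3' over 5' ratio was 8.59 to 10.4 on fresh arrays and 11.6 to 12.4 in dispersed DMSO. It was 13.59 to 15.35 in aggregates in DMSO and 11.36 to 15.2 in aggregates with 24 h of BIO. Against fresh cells this covariate and these groups likewise cannot be told apart. Aldh1a1, Crabp1 and Crabp2 lie near or below background in several groups, which limits their folds to lower bounds.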
